A study of Rattus norvegicus with 8 samples.

Results

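In rat aortic smooth muscle cells, 4102 regions marked by H3K4me3 in both conditions lay away from every locus of the RNA table. They were chosen as regions of the control H3K4me3 list that were narrower than 8000 bp, overlapped a region of the list made after angiotensin II (AngII) by at least 1 bp, and lay more than 10 kb from each of the 30937 rows of the RNA table, whether the row had a name (22296 rows) or not (8641 rows). They are called distal regions here. They were 14.6% of the 28168 control H3K4me3 regions, and 17.5% of the 23468 that were narrower than 8000 bp and shared between the conditions. The remaining 19366 of those shared regions lay within 10 kb of a row and are called near regions. The distal regions were chosen by width, overlap with the AngII list and distance, so these values are given as a description. Score rank and H3K36me3 were not part of the choice.

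H3K4me3, trimethylation of lysine 4 of histone H3, is laid down by SET1 and MLL complexes at active promoters, often at CpG islands, and occurs more weakly at some enhancers. H3K36me3 is written by SETD2, which travels with elongating RNA polymerase II, and marks the bodies of transcribed genes. A promoter mark followed by a transcribed-body mark outside known genes has been used to find unannotated transcripts, long noncoding RNAs among them. AngII is a peptide hormone that acts on smooth muscle through the AT1 receptor to cause contraction and growth.

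The cells were primary cultures of vascular smooth muscle made from thoracic aortas of Sprague-Dawley rats, grown in M199 medium with fetal bovine serum. Control cells had no treatment, and treated cells received 0.1 uM AngII for 3 h. The labels state overnight serum starvation for the AngII samples only, so starvation and AngII cannot be told apart. Each assay (RNA-seq, H3K4me3 and H3K36me3 ChIP-seq) had 1 library per condition, and 2 input libraries were not analysed here. How many animals gave the cells is not stated in the labels.

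With 1 library per condition no difference between conditions could be tested, and none has a replicate check. Regions of 1 library are not replicates, so 95% Clopper-Pearson intervals beside shares of regions cover counting error only. No read totals were used, so the depth behind each list is unknown. Of 7 smooth muscle markers with a row, Tagln was listed at 5103 FPKM in control and 5244 after AngII and Myh11 at 96.5 and 84.7, while Des was at 0.734 and 0.557. The 3 endothelial markers lay between 0.0279 and 0.367 FPKM in control, the leukocyte markers Ptprc and Cd3e were listed at 0 in both libraries and Cd14 was at 5.46 in control, and of 4 fibroblast markers Lum was at 140.0 FPKM in control and 110.9 after AngII, while Pdgfra, Dpep1 and Pi16 lay between 1.30 and 7.80 in control.

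The distal regions were narrow and of middling to low score. Their median width was 1071 bp (interquartile range 765 to 1683 bp), against 2295 bp for the near regions. The score is the authors' own value for each region, and it was used only to rank regions within a list, as a percentile in which the highest score is nearest 100. The distal regions had a median score percentile of 38.1 in the control list (interval 37.2 to 39.0) and the near regions 60.4. Of the distal regions, 193 (4.71%, 4.08 to 5.40) were in the upper quartile of scores, against 33.5% of the near regions. In the lower quartile were 27.4% of the distal and 17.8% of the near regions. The distal regions therefore lay mostly in the middle of the score range, with few at its top.

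**Figure D1:**
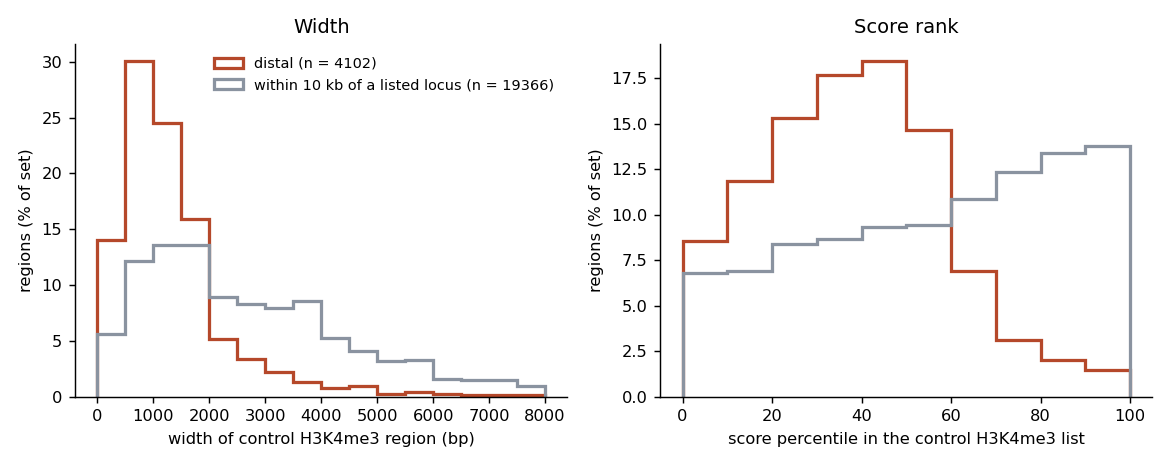
Width in bp (left) and score percentile in the control H3K4me3 list (right) of the 4102 distal and 19366 near regions, as a percentage of each set. The distal regions sit at smaller widths (median 1071 against 2295 bp) and lower ranks (median percentile 38.1 against 60.4) than the near regions.

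In both sets the narrowest regions ranked above those of 3 to 9 bins, and rank was higher again in wider ones, more so near rows. Across near regions Spearman's rank correlation between width and score was 0.51, and across distal regions it was 0.00435, given as a description of regions that share 1 library. Regions are whole multiples of a 153 bp bin in the control list. The distal regions held 387 of 1 or 2 bins (9.43%), against 3.54% of the near regions, and these narrow distal regions had a median score percentile of 54.7. It was 32.8 at 3 to 9 bins, 43.9 at 10 to 19 and 48.5 at 20 or more, against 57.4, 30.8, 60.7 and 77.3 over the 4 classes of near regions. At the top of the score range the sets differed in width. Of the 39 distal regions among the top 5% of scores, 23 were 1 to 4 bins wide and 13 were 10 bins or wider, while of the 1327 near regions there 81 and 1206 were.

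A counterpart after AngII was required by the rule, and how it matched is given as a description. A distal region was covered by AngII H3K4me3 over a median of 89.8% of its length, 26.3% were covered over their whole length, and 4089 (99.7%) met exactly 1 AngII region. For near regions these values were 94.0%, 30.2% and 99.4%. The AngII counterpart had a median width of 1120 bp, in a list whose bin is 160 bp. It was itself beyond 10 kb and narrower than 8000 bp in 4038 cases (98.4%). In 26 cases it reached to within 10 kb of a row and in 40 it was 8000 bp or wider. Scores of a region and its counterpart were related across distal regions with a rank correlation of 0.859, against 0.922 across near regions. In the upper quartile of both lists were 124 distal regions (3.02%), against 28.0% of the near regions.

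The median distance to the nearest row was 38.4 kb (interquartile range 19.5 to 88.1 kb). Beyond 50 kb lay 1712 regions (41.7%), beyond 200 kb 438 (10.7%) and beyond 1 Mb 17. The regions that met the distance limit most narrowly lay at 10.005, 10.006 and 10.010 kb, and those that missed it most narrowly at 9.994, 9.993 and 9.976 kb. The regions that met the width limit most narrowly were 7956, 7803 and 7803 bp wide, and 3 that missed it were 8109 bp each.

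H3K36me3 overlapped few distal regions. It touched 668 of 4102 in control (16.3%, 15.2 to 17.5) and 922 after AngII (22.5%, 21.2 to 23.8). Over all 28168 control H3K4me3 regions, members included, the shares were 55.1% in control and 61.6% after AngII. Near regions had 62.6% in control and 69.3% after AngII. Both conditions carried H3K36me3 at 543 distal regions (13.2%, against 52.2% of all regions), AngII alone at 379 (9.24%, against 9.44%) and control alone at 125 (3.05%, against 2.94%). Counted over every region of a set, the AngII-only and control-only shares were thus close to those of all regions. The share with H3K36me3 in both conditions was far lower. Counted over marked regions they were not close. Of the 668 distal regions with the mark in control, 125 lacked it after AngII, against 827 of 15532 over all regions. Of the 922 with it after AngII, 379 lacked it in control, against 2660 of 17365. No H3K36me3 in either condition was found at 3055 (74.5%), against 27.6% of near regions.

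The near share was still the higher when near regions were weighted by class of width and score. Near regions weighted to the width and score classes of the distal ones, a comparison chosen after seeing the data, had H3K36me3 at 48.3% in control and 57.1% after AngII. The distal share was the lower in 15 of 15 classes in each condition.

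**Figure D2:**
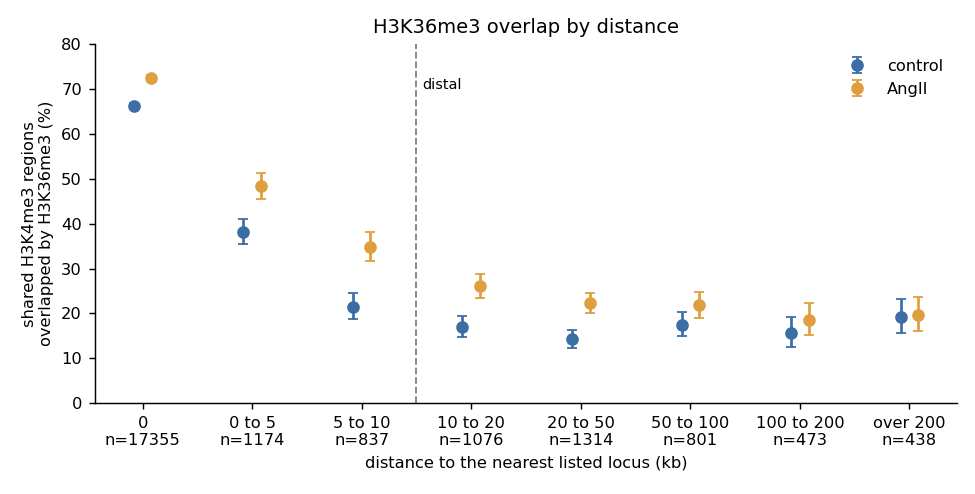
Share of shared H3K4me3 regions overlapped by H3K36me3 in control and after AngII, by distance in kb to the nearest row of the RNA table, with n regions below each class and 95% Clopper-Pearson intervals. The control share drops from 66.3% at distance 0 to 21.5% at 5 to 10 kb and lies between 14.2% and 19.2% in all distal classes.

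Within the distal range the control share hardly moved with distance, and the AngII share lay closer to it farther out. At 10 to 20 kb (1076 regions) H3K36me3 lay at 17.0% in control and 26.0% after AngII. From 20 to 50 kb (1314 regions) the shares were 14.2% and 22.3%. From 50 to 100 kb (801 regions) they were 17.5% and 21.8%, and from 100 to 200 kb (473 regions) 15.6% and 18.6%. Beyond 200 kb (438 regions) they were 19.2% (15.6 to 23.2) and 19.6% (16.0 to 23.7). The AngII share was thus 9.01 percentage points above the control share nearest to the rows and 0.457 points above it in the farthest class. The difference between these distances was not tested, and the trend rests on 1 library per condition.

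The higher AngII share was not matched by more H3K36me3 over the sequence beyond 10 kb as a whole. That sequence spans 1484 Mb, and H3K36me3 covered 4.69% of it in control (69.6 Mb) and 3.88% after AngII (57.6 Mb). Over the bases of the distal H3K4me3 regions, in contrast, the cover was 18.1% in control and 25.8% after AngII. Over the bases of the near regions it was also the higher after AngII, at 62.8% in control and 67.7% after AngII. The H3K36me3 lists have bins of 589 bp in control and 548 bp after AngII, and the part of this difference in the results was not tested.

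Wider distal regions carried H3K36me3 more often. Among the 281 of 20 bins or more it lay at 43.1% in control and 51.6% after AngII, and among the 2427 of 3 to 9 bins at 11.4% and 17.5%. The 1007 regions of 10 to 19 bins had 17.6% and 26.4%. The 387 narrowest, of 1 or 2 bins, had 24.0% (19.9 to 28.6) and 22.2% (18.2 to 26.7), where the control share was the higher. By score, the shares were highest at both ends. In the lowest quartile they were 20.7% in control and 29.9% after AngII, in the second 12.5% and 18.3%, in the third 15.4% and 19.7%, and in the highest 30.6% and 33.2%. Near regions had the same pattern. From the lowest to the highest quartile they had 63.2%, 45.2%, 54.0% and 80.7% in control, and 73.0%, 55.4%, 62.4% and 82.0% after AngII.

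**Figure D3:**
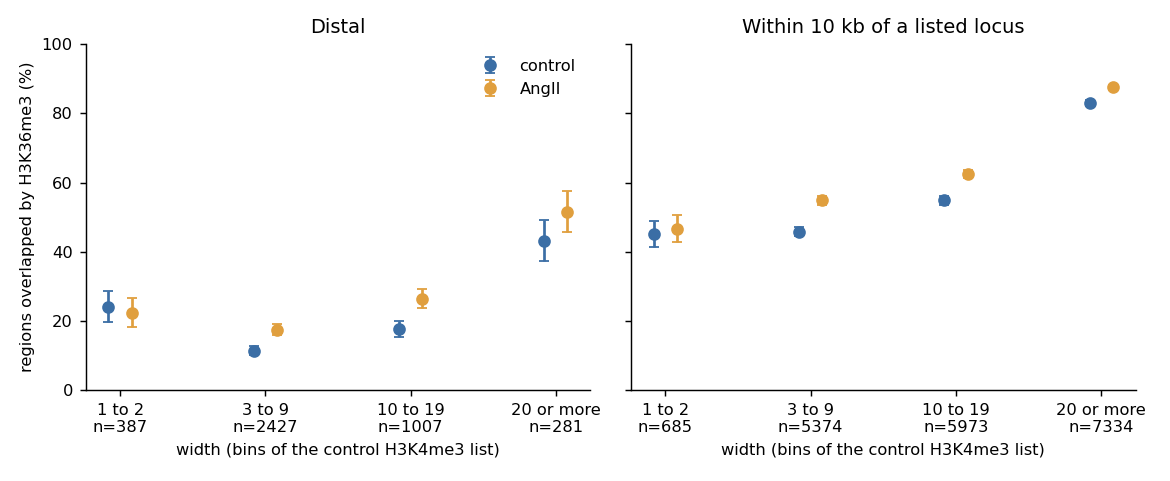
Share of distal (left) and near (right) regions overlapped by H3K36me3 in control and after AngII, by width in bins of 153 bp, with 95% Clopper-Pearson intervals. In both sets the regions of 20 or more bins have the highest share, and in the distal set the 1 to 2 bin regions stand above those of 3 to 9 bins in both conditions.

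Among the widest distal regions the share with H3K36me3 was higher in the lowest and highest score quartiles than in those between. Of 79 distal regions of 20 bins or more in the lowest score quartile, 65.8% had H3K36me3 in control and 79.7% after AngII, and the H3K36me3 domains over them had median widths of 230 kb and 100 kb. Of 40 such regions in the highest quartile, 55.0% and 57.5% had it, under domains of 87.2 kb and 78.9 kb. The second quartile (69 regions) had 34.8% and 39.1%, and the third (93 regions) 24.7% and 34.4%. Near regions of 20 bins or more, from the lowest to the highest quartile, had 76.0%, 55.1%, 77.3% and 90.2% in control. After AngII they had 86.7%, 66.1%, 84.1% and 92.2%. At regions of 1 or 2 bins the domains were short, with medians of 2.36 kb and 2.19 kb.

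Most H3K36me3 at distal regions belonged to domains that reached no row of the RNA table. Of the 668 regions with H3K36me3 in control, 180 (26.9%) lay under a domain that touched a row. Since the rule puts a distal region more than 10 kb from a row, a domain over it has to be longer than that to touch one, so this share is a description and is not set against the near regions. After AngII the number was 263 of 922 (28.5%). In control 581 domains held distal regions and 456 of them touched no row. The 456 had a median width of 5.89 kb. Domains of at most 3 bins made up 18.0% of the H3K36me3 at distal regions in control and 13.0% after AngII, and 1.31% and 1.24% at near regions. In both conditions H3K36me3 domains that touched no row lay at 361 of the 543 distal regions with the mark in both (66.5%).

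Where H3K36me3 was called after AngII only, the control mark was often not far off. The 379 regions lay a median of 13.9 kb from a control H3K36me3 domain, and 101 (26.6%) lay within 5 kb of one. At 176 of them (46.4%) the AngII domain itself overlapped a control domain elsewhere along its length, so that the mark reached the H3K4me3 region in 1 list and stopped short of it in the other. The same held for 40 of the 125 control-only regions (32.0%).

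Distal regions were found on all 21 chromosomes. Per Mb of sequence beyond 10 kb their number ran from 1.46 on X to 6.0 on chromosome 12, with 4.71 on chromosome 10, 4.31 on chromosome 17 and 4.15 on chromosome 20, and 2.76 over all chromosomes. Near regions per Mb of sequence within 10 kb had much the same extremes, 10.6 on X and 21.4 on chromosome 12, with 21.1 on chromosome 10, 20.4 on chromosome 20 and 15.7 on chromosome 17 and over all chromosomes. As a share of the shared regions under 8000 bp, they ranged from 12.1% on chromosome 10 to 25% (22.3 to 28.0) on chromosome 17. Chromosome 17 had the lowest share with H3K36me3, 21 of 230 in control (9.13%, 5.74 to 13.6) and 14.3% after AngII. X had the highest in control, 26.9% (20.2 to 34.4), and was the only chromosome of the 21 where the AngII share, 25%, was the lower. On the other 20 the AngII share was the higher, up to 36.2% on chromosome 12, while H3K36me3 cover of all sequence beyond 10 kb was the higher after AngII on 4 chromosomes.

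**Figure D4:**
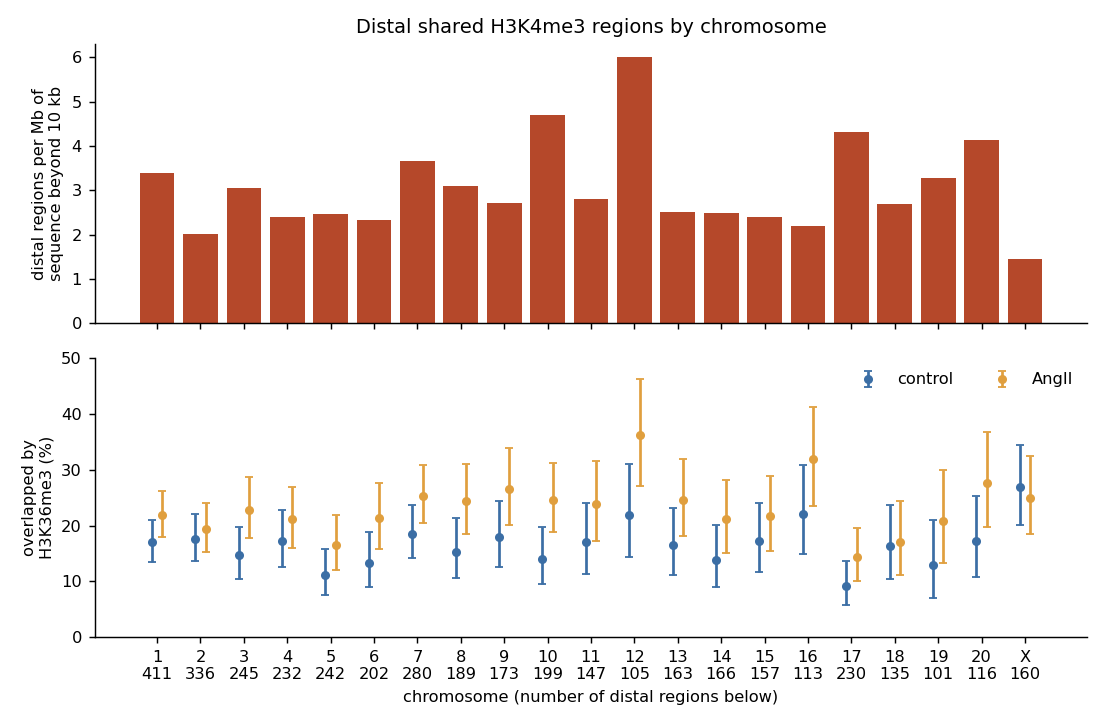
Top, distal regions per Mb of sequence beyond 10 kb on each chromosome, with the number of regions under the names. Bottom, the share of distal regions overlapped by H3K36me3 in control and after AngII with 95% Clopper-Pearson intervals, highest after AngII on chromosome 12 (36.2%) and lowest on chromosome 17 (14.3%).

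The 5 distal regions with the highest control score were all 1 to 4 bins wide. The first, chr15:31146754-31146906 in rn4 coordinates, was 1 bin of 153 bp, 1136 kb from Dad1, a subunit of the oligosaccharyltransferase complex (0.557 FPKM in control and 0.258 after AngII). In RefSeq the named coding gene between its neighbours Or4e5 and Dad1 that matched no row was Trav12-3, a T cell receptor alpha variable segment. The second, chr13:30743936-30744547 (612 bp), lay 173 kb from Tsn (51.3 and 42.0 FPKM) and met an H3K36me3 region of 0.548 kb after AngII. The third, chr1:232898014-232898319, lay 17.7 kb from Jak2, the tyrosine kinase of cytokine receptors (5.36 and 5.92 FPKM). The others were X:34292410-34292562, 11.8 kb from the cation channel gene Trpc5 (listed at 0 in control and 0.0135 FPKM after AngII), and chr15:54759581-54759733, 442 kb from the Mediator subunit Med4 (4.48 and 4.03 FPKM). By mean score percentile over both lists, the Dad1, Tsn and Trpc5 regions of these were joined by the 153 bp regions chr1:104689596-104689748, 2482 kb from Tubgcp5 (8.74 and 6.24 FPKM), and X:11519298-11519450, 530 kb from Slc6a14 (listed at 0 in both). The nearest row of any kind lay at 738 kb for the Tubgcp5 region and 339 kb for the Slc6a14 region. For the Tsn region it lay at 119 kb and for the Med4 region at 270 kb.

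Of the distal regions with H3K36me3 in both conditions, the 5 with the best mean score percentile were of different kinds. Of these, 4 were 153 to 612 bp wide, and their H3K36me3 domains were 0.589 to 3.53 kb in control and 0.548 to 1.10 kb after AngII. They were chr1:104689596-104689748, chr1:105931497-105931649 (1240 kb from Tubgcp5), chr1:191884787-191885245 (141 kb from Oat, an ornithine aminotransferase at 138 and 108 FPKM) and chr6:93668040-93668651 (330 kb from Actr10 at 33.3 and 29.8 FPKM). These distances are to named genes. The nearest row of any kind lay only 29.1 kb from chr1:105931497-105931649 and 255 kb from the Actr10 region. For the Oat region, too, a row lay nearer than the named gene. The fifth, chr11:51555281-51559411, was 4131 bp wide, at score percentiles of 98.9 and 94.4. Its H3K36me3 domains of 43.6 kb in control and 37.3 kb after AngII touched no row. They covered 69.6% of this H3K4me3 region in control and 16.4% after AngII. The region lay 96.0 kb from Bbx, a gene of the HMG-box family (13.8 FPKM, bounds 7.99 to 19.5, and 8.94 FPKM, bounds 5.10 to 12.8). Over all distal regions, 55 were at most 4 bins wide with H3K36me3 domains of at most 3 bins in both conditions, while 132 were 10 bins or wider with domains that touched no row in either. No such counts are given for near or all control regions, so these show nothing particular to the distal set. The distance in the rule also makes domains that touch no row more likely.

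The widest distal region, chr4:159237489-159245444 (7956 bp), lay 16.3 kb from Slc2a3, a glucose transporter. Slc2a3 was at 30.2 FPKM in control (bounds 17.4 to 43.0) and 85.9 after AngII (50.2 to 122), and the region met H3K36me3 after AngII only, in a domain of 3.84 kb. The next, chr12:14591055-14598857 (7803 bp), lay 12 kb from Chst12, a carbohydrate sulfotransferase at 6.85 and 2.75 FPKM, under domains of 24.7 and 27.9 kb. Of the same width, chr4:5741807-5749609 lay 23.1 kb from Crygn (listed at 0 in both) under domains of 7.66 and 8.22 kb, and the named coding gene between its neighbours in RefSeq was Rheb, the GTPase that activates mTORC1. A pair of regions of 7650 bp completed the set. Of these, chr18:36716810-36724459 lay 36.5 kb from Dpysl3 (286 and 227 FPKM) under domains of 112 and 113 kb. The other, chr2:865720-873369, lay 622 kb from Cast, the calpain inhibitor (97.2 and 98.3 FPKM), and 218 kb from its nearest row of any kind. It lay under domains of 534 and 532 kb, and its AngII counterpart was 28160 bp wide.

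The farthest distal region, chr4:100214404-100214862 (459 bp), lay 2071 kb from a row and met H3K36me3 after AngII only, in a region of 0.548 kb. The second, chr6:66318814-66321567 (2754 bp), lay 1828 kb from Stxbp6 (1.08 and 1.16 FPKM) without H3K36me3 in either condition. The third, chr10:23813836-23814906, lay 1684 kb from Nudcd2 (24.8 and 17.0 FPKM), and had H3K36me3 domains of 1.18 and 1.64 kb. The remaining 2 were X:107686592-107686744, 1588 kb from a row and 1716 kb from Pabpc5 (listed at 0 in both), and chr18:19195714-19196019. The latter lay 1581 kb from a row and 1862 kb from Kiaa1328 (3.72 and 1.84 FPKM), with Celf4, an RNA-binding protein gene, between its neighbours.

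Part of the distal regions came in groups. With less than 50 kb between neighbours they formed 3122 groups, of which 2448 were single regions (59.7% of the regions). Groups of 2 or more numbered 674, and 24 held 5 or more. No such counts are given for near or all control regions, so the grouping shows nothing particular to the distal set. The largest held 8 regions. One, at chr2:52091269-52221930 between Zfp131 and Selenop, the selenium transport protein, had widths of 612 to 5355 bp and score percentiles of 8.00 to 86.4, with H3K36me3 at 1 region in control and 2 after AngII. The other, at chr4:79515434-79669045 between Npvf and Hnrnpa2b1, had H3K36me3 at 1 region in control and 3 after AngII, and RefSeq places Nfe2l3, a transcription factor of the cap'n'collar family, between its neighbours. Groups of 7 lay at chr3:161188631-161265895, between Zfp217 and Bcas1, with H3K36me3 at 3 and 4 regions, and at X:130263129-130343453, between Psmd10 and Actrt1.

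The X group had low scores. Its 7 regions were 918 to 7191 bp wide, their score percentiles ran from 0.00533 to 13.5 in control with a median of 1.57, and all 7 lay under 1 H3K36me3 domain of 295 kb in both conditions. At 6 regions there was a tie of 6 groups, and the first by chromosome, chr1:119764374-119932673 between Tjp1 and Tm2d3, had H3K36me3 at 1 region in control and 3 after AngII. A further 2 of these are named after their values were seen. At chr11:78440475-78567923, between Lpp and Bcl6, 5 of 6 regions lay under a domain of 603 kb in control and 608 kb after AngII. At chr20:22443467-22541692, between Reep3 and Slc25a16, no region had H3K36me3 in control and 4 had it after AngII.

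The rows of the RNA table nearest to distal regions were somewhat more often expressed than rows in general. The nearest row had an FPKM of 1 or more in control at 58.4% of the regions (56.9 to 59.9), against 50.3% of all rows, and after AngII at 53.7%, against 45.0%. Regions with H3K36me3 in both conditions had 61.5% (57.3 to 65.6) in control and those without H3K36me3 57.7% (56.0 to 59.5). The nearest row was at least 2-fold higher after AngII, on the scale of FPKM plus 1, at 158 regions (3.85%, 3.28 to 4.49) and at least 2-fold lower at 122 (2.97%). Of all rows 2.5% were higher and 2.98% lower by that rule. The share higher was 4.75% (2.84 to 7.40) for regions with H3K36me3 after AngII only and 3.86% for those without H3K36me3. The share lower was 4.97% (3.30 to 7.15) for regions with H3K36me3 in both conditions and 2.62% (2.08 to 3.25) for those without. Regions can share a nearest row and are not replicates, so the intervals cannot decide whether these shares differ, and this was not tested.

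Not every RefSeq gene could be matched to a row of the RNA table. For 3520 distal regions (85.8%), the nearest row with 1 RefSeq symbol on each side could be placed on 1 chromosome of the GRCr8 annotation with no other listed gene between. At 53.3% of these (51.7 to 55.0), RefSeq has at least 1 named coding gene between the neighbours that matched no row. Such a gene is called unlisted here, although it may be in the table under an older name or as an unnamed row. Exactly 1 such gene was present at 1104 (31.4%), no coding gene at all at 41.3%, and neither a coding nor a long noncoding gene at 14%. The share with an unlisted named coding gene was 50.2% (45.3 to 55.2) for regions with H3K36me3 in both conditions and 54.1% (52.2 to 56.0) for those with none. It was 53.2% in the upper and 52.6% in the lower score quartile. No such shares are given for near or all control regions, so these show nothing particular to the distal set. Since the files use rn4, the position of a region within the interval was not set against GRCr8, and how far it lay from such a gene is not known.

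Of regions of 10 bins or more in the upper score quartile with usable neighbours, 34.7% (25.3 to 45.2) lay in an interval with exactly 1 such gene, close to the 31.4% of all. Named here, after their values were seen, are the 2 regions of 10 bins or more with the best mean score percentile and exactly 1 such gene, first without H3K36me3 in either condition and then with it in both. Without H3K36me3 in either condition, chr6:72764729-72767788 (3060 bp, score percentiles 99.3 and 99.5) lay between Nubpl and Akap6. The unlisted gene there is Arhgap5, a GTPase-activating protein. The nearest row of any kind lay 19.3 kb from this region and Akap6 246 kb, and whether that row belongs to Arhgap5 was not tested. Also without H3K36me3, chr4:57602163-57603692 (1530 bp, 98.7 and 96.2) lay between Cep41 and Copg2, where the unlisted gene is Mest. Mest is an imprinted gene expressed from the paternal allele in mouse and human. With H3K36me3 in both conditions, the chr11 region described above, between Cblb and Bbx, ranked first. RefSeq has 11 long noncoding genes in that interval, and the unlisted coding gene there is Ccdc54. The next, chr18:60885420-60888632 (3213 bp, 86.9 and 91.8) lay between Atp8b1 and Mir122, where it is Nedd4l, a ubiquitin ligase acting on epithelial sodium channels, under domains of 11.2 and 13.2 kb. Its nearest named row, Atp8b1, a phospholipid flippase gene, was at 2.42 FPKM in control (bounds 1.25 to 3.58) and 13.3 after AngII (7.73 to 18.8).

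The promoters of these 4 genes in RefSeq are printed as examples and stand for no other interval. Each is 300 bases, 250 before and 50 after the annotated start, in GRCr8 on the plus strand, with the dinucleotide CG, which reads the same on both strands, in capitals. Arhgap5 is at chr6:75711468-75711767, Mest at chr4:60321564-60321863, Ccdc54 at chr11:63692767-63693066 and Nedd4l at chr18:60663720-60664019. Whether the H3K4me3 regions, placed in rn4, cover them was not tested.
Arhgap5: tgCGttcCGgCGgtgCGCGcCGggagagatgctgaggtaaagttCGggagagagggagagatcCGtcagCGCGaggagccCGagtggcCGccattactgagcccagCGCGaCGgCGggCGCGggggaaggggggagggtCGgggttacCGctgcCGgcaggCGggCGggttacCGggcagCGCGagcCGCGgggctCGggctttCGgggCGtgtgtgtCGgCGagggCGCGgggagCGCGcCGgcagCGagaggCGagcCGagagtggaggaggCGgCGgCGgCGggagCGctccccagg
Mest: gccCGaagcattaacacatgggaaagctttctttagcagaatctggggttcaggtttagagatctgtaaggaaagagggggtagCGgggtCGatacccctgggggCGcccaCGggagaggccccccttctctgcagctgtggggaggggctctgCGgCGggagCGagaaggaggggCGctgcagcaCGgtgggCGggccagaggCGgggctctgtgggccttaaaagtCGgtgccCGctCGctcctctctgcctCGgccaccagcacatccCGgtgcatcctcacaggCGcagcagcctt
Ccdc54: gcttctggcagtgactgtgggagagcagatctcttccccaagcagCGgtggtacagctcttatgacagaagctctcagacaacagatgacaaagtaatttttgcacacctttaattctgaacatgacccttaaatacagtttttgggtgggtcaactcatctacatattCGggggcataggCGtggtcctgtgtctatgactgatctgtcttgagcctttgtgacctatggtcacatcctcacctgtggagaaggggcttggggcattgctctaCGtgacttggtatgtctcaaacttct
Nedd4l: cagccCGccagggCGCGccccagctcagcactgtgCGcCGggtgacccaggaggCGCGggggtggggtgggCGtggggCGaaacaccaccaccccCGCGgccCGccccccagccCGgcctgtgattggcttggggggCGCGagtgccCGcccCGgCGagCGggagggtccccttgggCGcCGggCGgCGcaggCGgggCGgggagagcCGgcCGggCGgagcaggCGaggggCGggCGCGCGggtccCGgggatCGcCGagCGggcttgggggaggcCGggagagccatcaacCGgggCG

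The Arhgap5 promoter holds 46 CG dinucleotides, Mest 18, Ccdc54 4 and Nedd4l 40. Over 33465 RefSeq promoters of this length the median was 7 (interquartile range 3 to 19), and 94.5% held at least 1. As many or more were held by 1.43% of promoters for Arhgap5, 27.5% for Mest, 69.3% for Ccdc54 and 3.25% for Nedd4l.

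Other wide regions named after their values were seen had H3K36me3 in 1 condition only. After AngII only, chr3:59094081-59096834 (2754 bp, score percentiles 99.1 and 99.6), 18.4 kb from the RNA-binding protein gene Rbm45 (0.713 and 0.354 FPKM), lay under a domain of 8.77 kb that touched no row. In the same class, chr7:138616796-138619090 (2295 bp), 33.9 kb from the actin-binding protein gene Lima1 (25.9 and 23.8 FPKM), lay under a domain of 23.0 kb. In control only, chr14:7174054-7177419 (3366 bp, 99.4 and 99.5) lay under a domain of 221 kb in an interval between Aff1, a subunit of elongation complexes, and C14h4orf36.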

How the data were processed

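RNA abundance is in FPKM with lower and upper bounds for each locus, as deposited by the authors; the second deposited RNA table was identical and was not used. Regions carry a score deposited by the authors; its definition and the region caller are not given in the sources used here, and a further score column was not used. The submitters' processing notes name TopHat, Cufflinks, Cuffdiff, Bowtie and the build rn4. Samples were grouped by their titles.

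Overlap meant at least 1 bp. Distance was measured between region edges and loci of the RNA table. Percentiles are ranks within a list. Shares have Clopper-Pearson intervals of 95%, and fold differences between the RNA libraries use a pseudocount of 1. Gene names came from RefSeq GRCr8: 16252 of 30937 rows matched a symbol, 16025 exactly 1. Sequences are RefSeq promoters. Coordinates are 1-based in rn4 unless GRCr8 is named. Python 3.11.15, pandas 2.3.3, numpy 2.4.6, SciPy 1.17.1 and matplotlib 3.10.9 were used, and the interval code was tested on simulated data.

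The text names the 5 regions highest by control score, by mean score percentile over both lists, by width, by distance and by mean percentile among those with H3K36me3 in both conditions, the 5 largest groups, and 3 regions on each side of each limit, each with its nearest named locus; some neighbouring genes are not reported here. Regions, lists and tests were chosen with earlier results of these data known. Alternatives varied the limits, the overlap, the rows counted, the score minimum and the list.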

Additional observations from a re-analysis of the deposited data

How the results depend on the processing

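No paired analysis was possible because every condition had a lone library per assay, and none could be left out. Of the alternative values, 42 stayed within the counting interval (or within 1.5 times, for the number of regions) and 32 did not. The alternative kept to assembled chromosomes left all 4102 regions in place, so its values, counted among the 42, could not change. In every alternative the share with H3K36me3 was higher after AngII than in control. The number of regions was 1712 beyond 50 kb, 7108 counting distance only from rows at FPKM of 1 or more, 1154 at or above the median score and 193 at or above the upper quartile. The control share with H3K36me3 was 24.4% when a region within 5 kb counted, 14.3% with reciprocal overlap, 14% when 50% of the H3K4me3 region had to be covered, 14.9% under 4000 bp, 18.0% with no width limit, 15.1% from rows at FPKM of 1 or more, 22.0% from named rows, 17.9% above the median score and 30.6% in the upper quartile. The AngII share was 31.4% within 5 kb, 20.4% with reciprocal overlap, 20.2% with 50% covered, 24.6% beyond 5 kb, 20.4% beyond 50 kb, 21.0% under 4000 bp, 24.1% with no width limit, 29.1% from named rows and 33.2% in the upper quartile. Median width was 1120 bp from the AngII list, 1224 bp from expressed rows, 1377 bp above the median score and 1683 bp in the upper quartile. The median percentile was 36.6 from the AngII list, 36.7 at 2 bins or more, 41.1 from expressed rows, 39.5 from named rows, 59.5 above the median score and 84.5 in the upper quartile. Near regions, weighted as in the report (chosen after seeing the data), had 48.3% and 57.1%. A score minimum, by construction, selects on the measure it is read beside, and the cause of the other shifts was not tested. The bin sizes of the lists, the unknown depth and the single library per condition limit what the shares can show.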

Other observations

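The control list also held 1175 regions beyond 10 kb and under 8000 bp with no counterpart after AngII. Their median width was 765 bp and their median score percentile 19.5, and H3K36me3 overlapped 22.1% of them in control (19.8 to 24.6) and 28.9% after AngII (26.4 to 31.6). The 101 shared distal regions of 8000 bp or more had H3K36me3 at 88.1% in control and 89.1% after AngII, and 45.5% of them were in the lowest score quartile.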
